A study of Homo sapiens with 10 samples.

Results

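The sites described here are 1038 of the 2535 Smad3 peaks called in A549 cells, chosen by the called peaks themselves as those that share no base with a Smad3 peak of H441 cells, whether H441 had received a control siRNA or an siRNA against TTF-1. They are called A549-only sites below, and the other 1497 A549 peaks are called shared. Both names describe calls: an A549-only site is one where no H441 Smad3 peak passed the calling limit, and the H441 signal beneath that limit was not analysed here.

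A549 and H441 are human lung adenocarcinoma lines. Per the labels, H441 expresses TTF-1 (also named NKX2-1), A549 does not, and the siTTF-1 H441 cells were depleted of it by siRNA. Chromatin immunoprecipitation and sequencing mapped Smad3 in A549 (1 library), Smad3 in H441 siControl and H441 siTTF-1 cells, Smad4 in the same 2 kinds of H441 cells, and TTF-1 in H441 at 0 h and 1.5 h. The described treatment of all cells was TGF-β3 at 1 ng/ml for 1.5 h, and only the titles of the TTF-1 libraries tell 0 h from 1.5 h. Each condition is 1 library of 1 cell line, so no difference between the lines can be set against replicate spread, and line, input and calling limit cannot be told apart. The limit was a false discovery rate of 5% in A549 and 1% for H441 Smad3 and TTF-1, and 10% for Smad4. Read depth is not known from peak lists.

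Smad3 is an intracellular mediator of TGF-β signalling: phosphorylated by the activated receptor, it joins Smad4, moves to the nucleus and binds DNA with low affinity of its own. It is known to depend on partner factors and open chromatin for where it binds, so its sites differ widely between cell types. TTF-1, a homeodomain factor of lung epithelium, is a known partner of Smad3 in lung cells. A549-only sites are places bound in the line that lacks this factor and not called in the line that has it, including when it was depleted there. All positions are on hg18 and count from 1. Sites are given by position, since genes and sequences of this build were not used here.

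The A549-only sites made up 40.9% of the A549 list (exact Clopper-Pearson 95% interval 39.02 to 42.9, counting error only, as for all intervals below), a share that the rule itself fixes. Of the shared peaks, 1057 met both H441 Smad3 lists, 419 the siTTF-1 list alone and 21 the siControl list alone. A549-only sites were slightly narrower than shared ones, with a median of 599 bp (quartiles 449 and 799, range 149 to 2049 bp) against 649 bp (499 and 899). Together they covered 679.5 kb. They also stood later in the A549 list, with a median peak number of 1457 where shared sites had 1145. Each deposited list numbers its peaks from 1 upwards. What sets this order is not stated by the labels, though wide peaks tend to have low numbers.

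A549-only sites were found along the whole list, including its head. They made up 30.6% (26.6 to 34.8) of the first quintile of the A549 list by peak number and 50.1% (45.7 to 54.5) of the last. In between, the share went up in each quintile, from 38.1% to 41.0% and 45.0%. In the first quintile both kinds of site had the same median width, 899 bp. The peaks numbered 2, 3, 4 and 5 of the A549 list were all A549-only. Peak number 2 lay on chromosome 10 (6361151 to 6362449, 1299 bp wide), and the nearest H441 Smad3 peak was 3401 bp away. Numbers 3, 4 and 5 lay on chromosome 9, at 117746251 to 117747299, 74792551 to 74793299 and 83340051 to 83340949. Their nearest H441 Smad3 peaks were 51.2 kb, 112 kb and 23.7 kb away, and none of these 4 sites had an H441 peak of TTF-1 or Smad4. The next 6 sites in list order, numbers 14 to 35, lay on chromosomes 6, 8, 16, 14, 5 and 16. Only the last of these, on chromosome 16 (86444651 to 86445999), had TTF-1 peaks in H441.

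**Figure D1:**
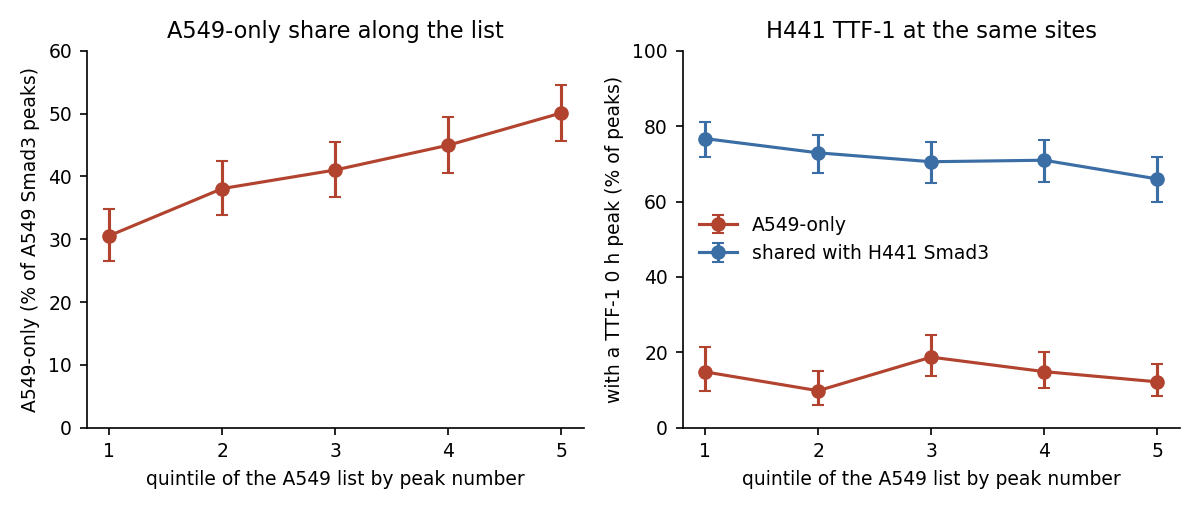
Left, A549-only sites as a percentage of all A549 Smad3 peaks in each quintile of the A549 list by peak number. Right, the percentage of A549-only sites (red) and shared sites (blue) with an H441 TTF-1 0 h peak in the same quintiles. Bars are exact 95% intervals. The A549-only share goes from 30.6% to 50.1%, and the red TTF-1 values stay between 9.8% and 18.8%.

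Some of the widest A549-only sites lay far from H441 binding. The widest, of 2049 bp, lay on chromosome 5 (168709401 to 168711449) at peak number 61, and H441 Smad3 was 343 kb away. Then came peaks of 1999 bp on chromosomes 12 (109030151 to 109032149) and 9 (21547301 to 21549299). The fourth, on chromosome 20 (29658751 to 29660699), was 1949 bp wide. The chromosome 12 and chromosome 20 sites each carried an H441 TTF-1 peak at both times, and the other 2 carried none. The chromosome 20 site lay 2251 bp from an H441 siTTF-1 Smad3 peak. Of the 10 widest A549-only sites, the only one with Smad4 was a 1749 bp site on chromosome 6 (117868501 to 117870249, peak number 66), and it carried TTF-1 at 0 h and at 1.5 h. This site lay 6351 bp from the nearest siTTF-1 Smad3 peak, whereas the nearest siControl Smad3 peak was 1321551 bp away.

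Most A549-only sites were not close to H441 Smad3 binding, although the rule asks only that no base be shared. The median gap to the nearest H441 Smad3 peak of either list was 28851 bp (quartiles 7751 and 116051 bp). A gap of at most 1 kb was seen for 61 sites (5.9%) and of at most 10 kb for 316 (30.4%, 27.7 to 33.3). A further 293 sites (28.2%) were over 100 kb away and 22 over 1 Mb away. The siTTF-1 list, which is the longer one, came nearer (median 33426 bp) than the siControl list (65751 bp). These distances use the lists of the rule and are given as a description.

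The edge of the rule falls on the 50 bp grid of the lists. The 3 nearest A549-only sites were 1 bp from a siTTF-1 Smad3 peak, that is, in the adjoining grid step. They lay on chromosomes 7 (17564051 to 17564599), 8 (102533951 to 102534549) and 9 (84831951 to 84832299). The first of them overlapped peak number 164 of the TTF-1 1.5 h list, the lowest TTF-1 1.5 h number at any A549-only site. The next were 51 bp (chromosome 6, 147277351) and 101 bp (chromosome 12, 62597851) away. Just outside the rule, the smallest overlap was 49 bp. It was found in shared sites on chromosomes 1 (216826101 to 216826349), 11 (18362401 to 18363099) and 13 (72610901 to 72611449), among others, each with a siTTF-1 peak. In all, 12 A549-only sites were within 200 bp of an H441 Smad3 peak.

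**Figure D2:**
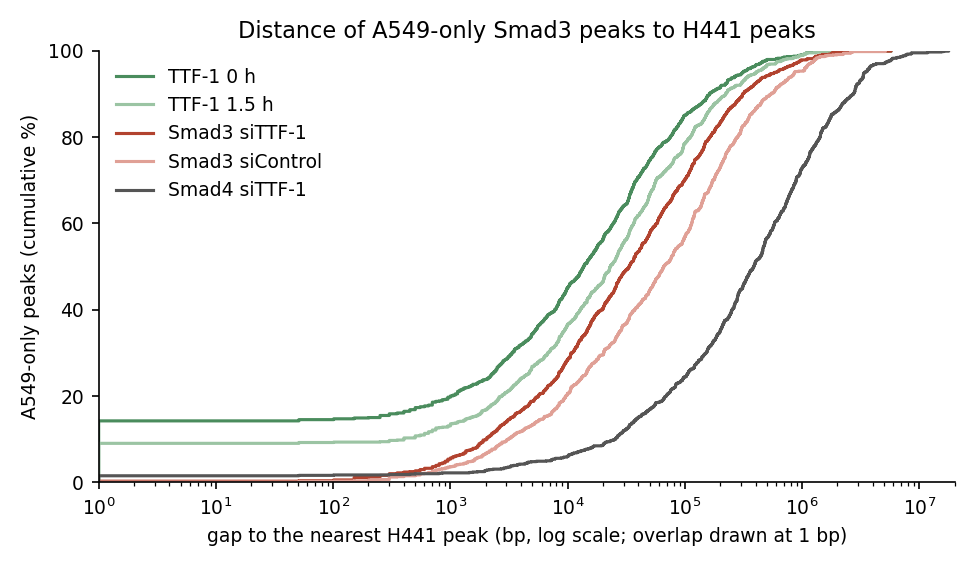
Cumulative percentage of the 1038 A549-only sites (y axis) by the gap to the nearest peak of each H441 list (x axis, bp, log scale, with overlap drawn at 1 bp). The TTF-1 0 h curve starts at 14.3%, which counts overlaps and gaps of 1 bp, and reaches 45.1% at 10 kb. The siTTF-1 Smad3 curve, which starts near 0 by the rule, reaches 28.4% there.

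TTF-1 was a minority feature of the A549-only sites. A TTF-1 0 h peak lay on 146 of the 1038 sites (14.1%, 12.01 to 16.3), against 48.2% of all A549 Smad3 peaks. A TTF-1 1.5 h peak lay on 90 sites (8.7%, 7.03 to 10.55), against 42.4% of all A549 peaks. The 419 A549 sites that were in the siTTF-1 Smad3 list but not in the siControl list had TTF-1 1.5 h peaks in 28.4% of cases (24.1 to 33.0), and those in both H441 Smad3 lists in 80.0% (77.5 to 82.4). The difference, A549-only minus the siTTF-1-only class, was -22.45 percentage points at 0 h (Newcombe 95% interval -27.6 to -17.45) and -19.7 points at 1.5 h (-24.5 to -15.2). Both intervals lie below 0, a direction partly set by the rule, which left out every A549 site with H441 Smad3. Peaks of a list are not replicates, so the intervals describe these lists, and no p-value is given. The TTF-1 and H441 Smad3 lists come from the same line, and per the labels use the same input, so sites without H441 Smad3 are not an independent sample of TTF-1 sites. Both differences are therefore given as a description.

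The TTF-1 share of A549-only sites had no steady course along the A549 list. It was 14.8% in the first quintile, 9.8%, 18.8% and 14.9% in the next 3, and 12.2% in the last, with intervals that overlap. Shared sites went from 76.7% in the first quintile to 66.0% in the last. With distance from H441 Smad3, the TTF-1 0 h share of A549-only sites was 16.4% (8.2 to 28.1) within 1 kb and 18.8% (14.2 to 24.2) at 1 to 10 kb. It was 14.7% (11.5 to 18.4) at 10 to 100 kb and 8.5% (5.6 to 12.3) beyond 100 kb, where 25 of 293 sites had a TTF-1 0 h peak. The rule used the distance, so these shares are a description.

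Where TTF-1 was present, its peaks stood later in the TTF-1 lists than those on shared sites. The TTF-1 0 h peaks on A549-only sites had a median number of 19128 in a list of 31083, against 10225 for those on shared sites and 17840 for those on the siTTF-1-only class. Of the 146 peaks, 17 (11.6%) came from the first quintile of the TTF-1 0 h list and 36 (24.7%) from the last. On shared sites the values were 34.1% and 10.1%, and on the siTTF-1-only class 7.8% and 23.5%. Each quintile holds an equal part of the list by definition. A low share from the first quintile was thus seen in both the A549-only and the siTTF-1-only class. At 1.5 h, 5 of 90 A549-only sites (5.6%) had a TTF-1 peak from the first quintile of that list, against 30.1% of shared sites and 4.2% of the siTTF-1-only class. From the last quintile of the 1.5 h list the shares were 22.2%, 10.6% and 18.5%.

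Fewer of these TTF-1 sites than of the shared ones were called at both times. Of the 146 A549-only sites with TTF-1 at 0 h, 85 also had a 1.5 h peak (58.2%, 49.8 to 66.3), 61 had a 0 h peak alone, and a further 5 had a 1.5 h peak alone. Of the shared sites with TTF-1 at 0 h, 88.0% (85.9 to 89.9) had one at both times, a difference of -29.8 points (A549-only minus shared, -38.1 to -21.8). Against the siTTF-1-only class, where the share was 68.6% (60.6 to 75.9), the interval of the difference was -21.0 to 0.50 and includes 0. Of all 31083 TTF-1 0 h peaks, 65.3% were called again at 1.5 h, a value within the interval of the A549-only sites. The distance between the Smad3 and the TTF-1 centre had a median of 100 bp for A549-only sites (quartiles 50 and 175 bp) and of 100 bp for shared sites (50 and 200 bp).

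The A549-only sites with TTF-1 that stood earliest in the A549 list were those at numbers 35, 39, 60, 66 and 71. Number 39, on chromosome 5 (58879951 to 58881199), lay 236551 bp from the nearest siControl Smad3 peak and 29651 bp from the nearest siTTF-1 Smad3 peak. Number 60 lay on chromosome 14 (76441001 to 76441649), with H441 Smad3 56.2 kb away. Number 71 lay on chromosome 12 (45765351 to 45766599), with a siControl Smad3 peak at 2051 bp and a siTTF-1 peak at 2101 bp. All 10 of the earliest sites with TTF-1 0 h also had a 1.5 h peak. Their partner peaks stood at numbers 8912 to 24061 of the 0 h list, so none came from its first quintile.

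**Figure D3:**
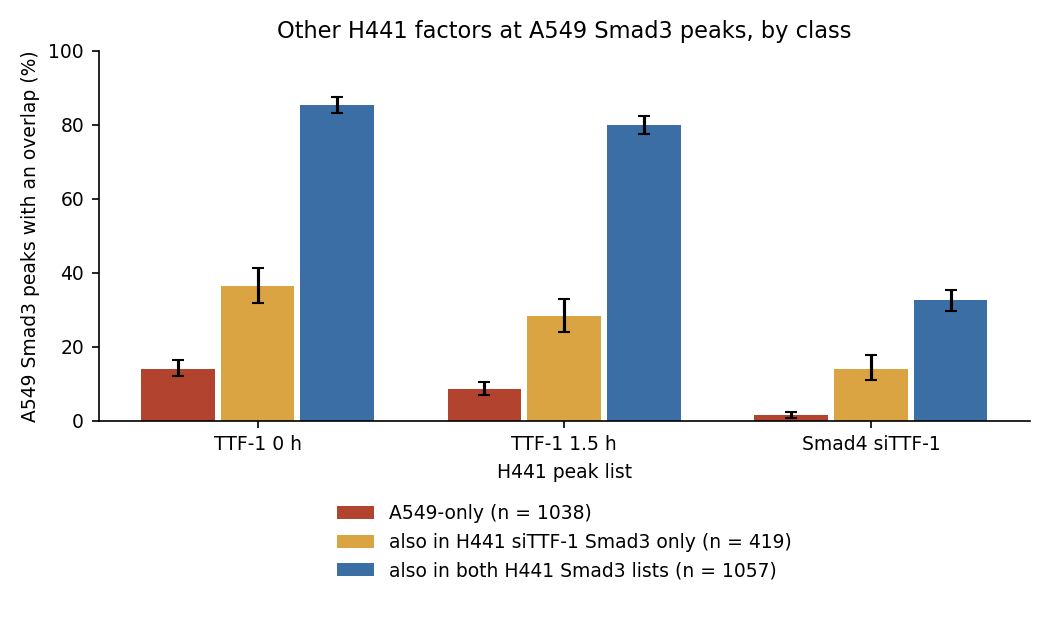
Percentage of A549 Smad3 sites with an overlapping H441 TTF-1 0 h, TTF-1 1.5 h or Smad4 siTTF-1 peak, for A549-only sites (red), sites also in the H441 siTTF-1 Smad3 list alone (yellow) and sites in both H441 Smad3 lists (blue). Bars carry exact 95% intervals. The red bars, at 14.1%, 8.7% and 1.5%, are the lowest of each group of bars.

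Smad4, the common partner of the receptor-activated Smads, was called at few A549-only sites. A Smad4 siTTF-1 peak lay on 16 of the 1038 (1.5%, 0.88 to 2.5), against 16.6% of all A549 peaks and 14.1% (10.9 to 17.8) of the siTTF-1-only class. The difference from that class was -12.5 points (-16.2 to -9.4), and the difference from all shared sites was -25.45 points (-27.8 to -23.1). The second difference was -10.85 points when at least 50% of an A549 peak had to be covered, a setting that also changed which sites were A549-only. Smad4 peaks had a median width of 299 bp. Of the 1605 Smad4 siTTF-1 peaks, 1299 met an H441 Smad3 peak, and the rule left out every A549 site that did so. Both differences are therefore partly set by the rule and are given as a description. Smad4 was mapped in H441 and not in A549. Smad4 binding in A549 cells at these sites was therefore not measured, and the Smad4 siControl list, which holds 1 peak, met none of them.

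The 16 sites with Smad4 were spread over the A549 list, from number 66 to number 2380 (median 995.5), and were 299 to 1749 bp wide. They lay 5.60 to 230.1 kb from H441 Smad3 (median 60.95 kb), with 10 of them over 50 kb away. After the chromosome 6 site at number 66, the earliest were on chromosome 16 (51671651 to 51672649, number 375) and again on chromosome 6 (117949501 to 117950449, number 430). The fourth, on chromosome 12 (20595601 to 20595949, number 554), had the earliest Smad4 partner, number 225 of 1605, and TTF-1 peaks at both times. In all, TTF-1 at 0 h was called on 4 of the 16 sites. Of the Smad4 peaks with no H441 Smad3, 16 of 306 (5.2%, 3.02 to 8.4) met an A549 peak. Of those with H441 Smad3 the share was 31.25% (28.7 to 33.9), 406 of 1299.

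In sum over the 3 lists, 875 of the A549-only sites (84.3%, 81.9 to 86.5) carried no TTF-1 or Smad4 peak. For A549 peaks as a whole, 54.5% had at least one and 45.5% had none. Of the siTTF-1-only class, 49.6% had none. The surroundings were bound in H441 in most cases: the 1 Mb window of a median A549-only site held 7 siTTF-1 Smad3 peaks (quartiles 3 and 12) and 15 TTF-1 0 h peaks (9 and 23). For shared sites the medians were 10 and 18. Shared sites overlap H441 Smad3 by the rule. The Smad3 counts per window, and the windows without H441 Smad3, are therefore a description. A window without any H441 Smad3 peak held 59 A549-only sites (5.7%, 4.4 to 7.3) in 44 windows. Of these, 33 had some TTF-1 or Smad4 peak in the window, and 26 had no H441 peak of any list there. DNA copy number in the lines was not measured, and its part in empty windows was not tested. The 59 sites stood late in the A549 list (median number 1717), and TTF-1 at 0 h was called on 2 of them.

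A549-only sites had an A549-only neighbour more often than shared sites did. The nearest A549 peak was itself A549-only for 491 of 1038 (47.3%, 44.2 to 50.4), and for 36.0% (33.6 to 38.5) of the shared sites, a difference of 11.3 points (7.4 to 15.2), against the 40.9% of the whole list. Another A549 peak of any kind lay within 10 kb of 30.1% of A549-only and 29.4% of shared sites, and the interval of this difference includes 0 (0.67 points, -2.9 to 4.3). In both comparisons, peaks that lie together are counted for each other, and runs enter peak by peak. The intervals treat such peaks as separate and may be too narrow. The class of a nearest peak also comes from the rule, so these values are a description. Joining A549 peaks with gaps of at most 10 kb gave 321 groups of 2 or more peaks. Of these, 70 groups held A549-only sites alone, 123 held shared sites alone and 128 held both kinds. Of the 316 A549-only sites within 10 kb of an H441 Smad3 peak, 145 (45.9%) also had a shared A549 peak within 10 kb. Whether that shared peak met the same nearby H441 peak was not counted. For the other 171, no shared A549 site was that close.

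The A549-only share by chromosome was between 32.5% on chromosome 11 (24.1 to 41.8) and 51.4% on chromosome 9 (42.9 to 59.8, 74 of 144 peaks). Of the 23 intervals, which are not adjusted for their number, that of chromosome 9 lay wholly above 40.9% and that of chromosome 3 (32.7%, 25.5 to 40.6) wholly below. On chromosome 9, 2 windows of 1 Mb held 30 A549-only sites among 35 A549 peaks. Without them the chromosome 9 share was 40.4% (31.1 to 50.2), and all other chromosomes together had 40.3%. Windows were picked for their high number of sites, so these counts are a description.

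**Figure D4:**
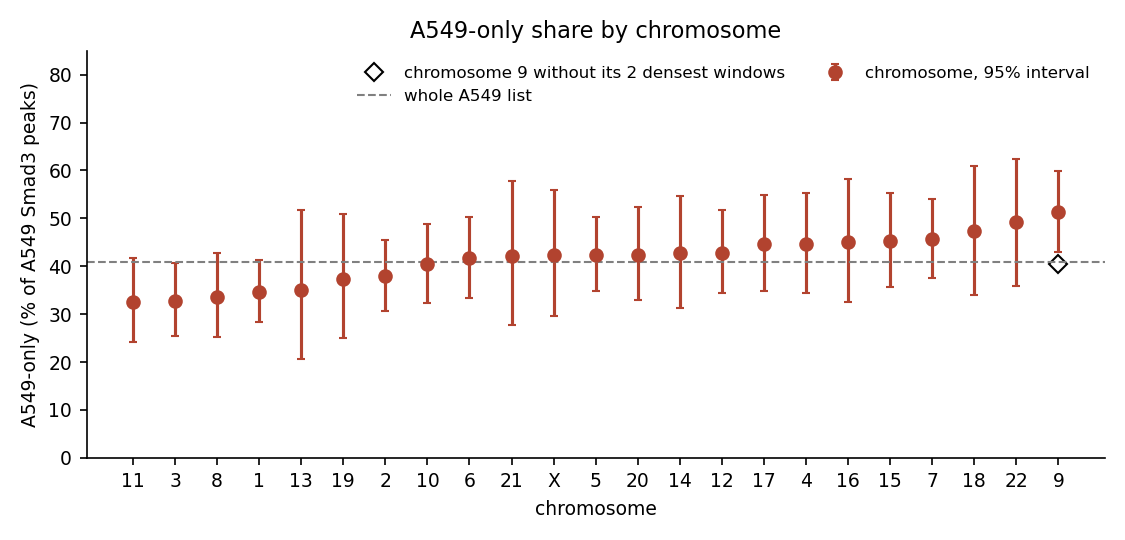
A549-only sites as a percentage of the A549 Smad3 peaks of each chromosome with at least 30 such peaks, in rising order, with exact 95% intervals. The dashed line is the whole list (40.9%). Chromosome 9 is highest at 51.4%, and the open diamond shows it at 40.4% without its 2 densest windows.

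The first of these windows, 21000001 to 22000000 on chromosome 9, held 18 A549 peaks, of which 15 were A549-only. In it, 10 sites formed the longest run of A549-only peaks with gaps of at most 10 kb, from 21543251 to 21569749. The peaks covered 10.3 kb of these 26.5 kb, or 39.0%. They included the 1999 bp peak at number 724 and peaks of 1649 bp (number 979), 949 bp (number 861) and 699 bp (number 815). The other 6 had numbers from 1521 to 2496, so no member of the run stood in the first quintile of the list. No H441 peak of Smad3, TTF-1 or Smad4 lay among them. The stretch between the flanking H441 Smad3 peaks, 21284950 to 21581300, was 296.4 kb long and held these 10 sites, no shared A549 site and no TTF-1 peak. H441 binding began again at its right edge, 11.55 kb past the last site, and the whole window had 8 siTTF-1 Smad3 and 15 TTF-1 0 h peaks. A further 5 A549-only sites of the window lay at 21595351 to 21673449, and the last 3 of them were 1151 to 2451 bp from H441 Smad3 peaks.

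The second window, 74000001 to 75000000 on chromosome 9, held 17 A549 peaks, of which 15 were A549-only. Of these, 14 lay in a single stretch of 271.4 kb between H441 Smad3 peaks (74633650 to 74905050), together with no shared A549 site and 2 TTF-1 0 h peaks that touched none of them. Of these, 10 formed a pair of runs of 5 peaks each, at 74742151 to 74756849 and 74783451 to 74802999. The second run held peak number 4 of the whole A549 list. Its neighbours had numbers 910, 937, 1489 and 1596. The first run had numbers 1218 to 2413 and a peak of 1549 bp. The whole window held 15 siTTF-1 Smad3 and 33 TTF-1 0 h peaks of H441. The remaining A549-only site of the window (74097751 to 74098199) sat on TTF-1 peak numbers 1123 at 0 h and 1161 at 1.5 h, 149 kb from H441 Smad3.

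**Figure D5:**
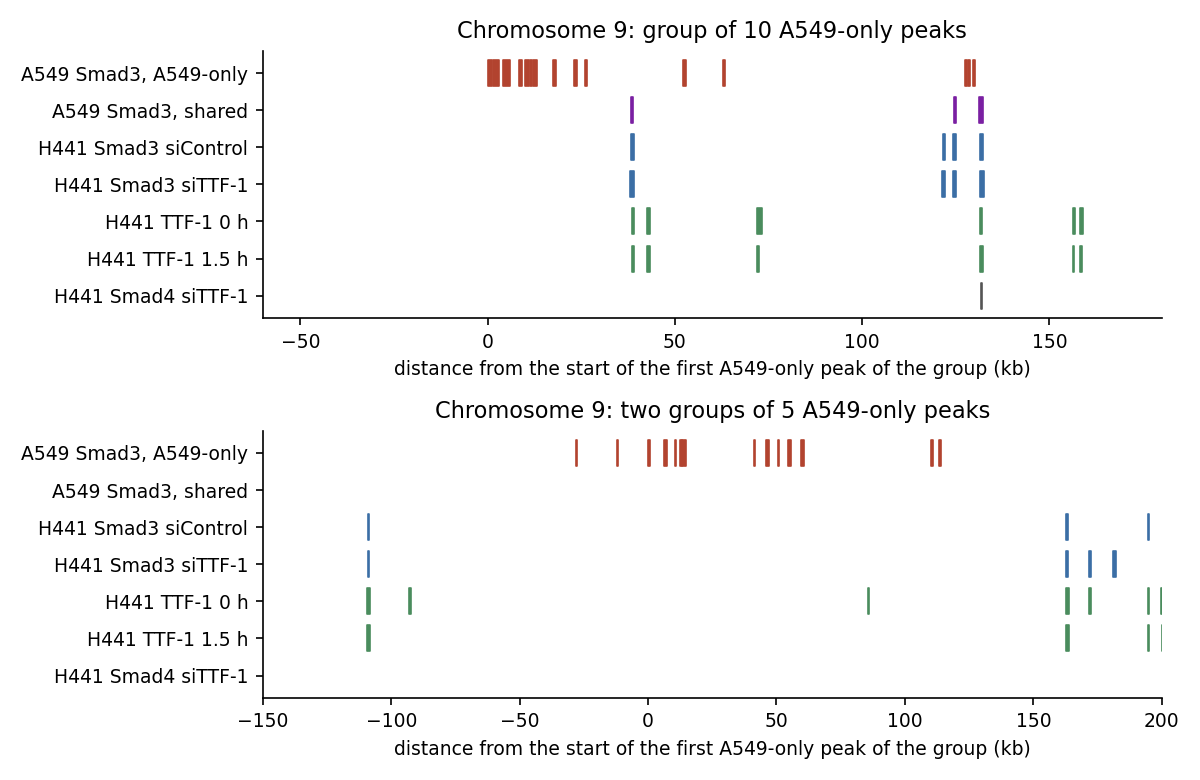
Peaks of each list on chromosome 9 around the run of 10 A549-only sites (top) and around the 2 runs of 5 (bottom), by distance in kb from the first site of the run. Each mark is a peak drawn to scale in its list's row. The rows of H441 lists are empty across the run of 10, and H441 peaks reappear at its right.

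The window 58000001 to 59000000 on chromosome 5 differed from those on chromosome 9 in its TTF-1 peaks. It held 14 A549 peaks, 12 of them A549-only, and TTF-1 0 h peaks lay on 5 of these 12. The A549-only sites were spread over 697.5 kb. The earliest were number 39, described above, number 108 (58394451 to 58395549), which lay 1001 bp from H441 Smad3, and number 301 (58458651 to 58459899), with a TTF-1 0 h peak and none at 1.5 h. H441 had 2 siControl and 6 siTTF-1 Smad3 peaks in this window and 21 TTF-1 0 h peaks. The next densest windows held 7 A549-only sites each. On chromosome 17 (55000001 to 56000000) these lay among 8 shared sites, within 1901 to 8601 bp of H441 Smad3. On chromosome 22 (25000001 to 26000000) there were 4 shared sites, and the A549-only sites were 3101 to 43301 bp from H441 Smad3.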

How the data were processed

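Peak lists of 7 ChIP-seq libraries were used, and 3 input libraries are not analysed here. The lists are on hg18, per the submitters' processing notes. Calling limits are per the labels. No source used here names the aligner or the peak caller. Lists were called on single libraries. The deposited score is 1000 for every peak and was not used, and 1 track line was skipped. The 3 subsets deposited with the series were not used. Positions were converted to count from 1.

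Overlap means at least 1 bp shared, counted in A549 peaks. Gaps count the bases between peaks. Shares have exact Clopper-Pearson 95% intervals, and differences of shares have Newcombe 95% intervals. The sites, the measures and the alternatives were chosen with earlier results of these data known. Sites named are the 10 with the lowest peak number, the 10 widest, those with Smad4, the 10 earliest with TTF-1 0 h, those of the 5 densest 1 Mb windows and the longest runs, and 5 on each side of the rule. Within these sets only some are spelled out. The planned gene and motif counts were not run, since no hg18 genome or annotation was used.

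Python 3.11.15, NumPy 2.4.6, SciPy 1.17.1, pandas 2.3.3, statsmodels 0.14.6 and matplotlib 3.10.9 were used. Tested on 5 shifted H441 lists, 10 of 10 comparisons with bedtools were equal.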

Additional observations from a re-analysis of the deposited data

How the results depend on the processing

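Of 88 recomputed values for 8 results, 69 were scored as unchanged, 19 as moved and 0 as reversed. Unchanged means on the same side or within the interval of the reported value. The A549-only count has no side or interval here, so its 8 unchanged scores out of 10 do not show a steady count. It was 722 with edges within 10 kb, 1259 with centres within 200 bp and 1457 with the siControl list alone, against the reported 1038. The TTF-1 0 h difference between A549-only and shared sites was -57.7 points. It kept its direction, with an interval below 0, in all 14 alternatives, and the Smad4 difference did so in all 13. Every alternative still chose sites by H441 Smad3 peaks, and 71.8% of shared sites had a TTF-1 0 h peak in the same line. The direction of both differences is therefore partly set by the rule, and its steadiness is no separate support. Using only the wider 50% of the A549 list gave 447 A549-only sites, a median width difference from shared sites of 0 bp, a peak number difference of 160.5 and 15.4% with another A549-only site within 10 kb. The first 50% by peak number gave 443 sites, differences of -100 bp and 72.5, a chromosome 9 share of 41.5% (whole list 34.96%) and 12.2% with another site within 10 kb. Both settings keep fewer peaks by construction. With the siControl list alone as the reference, the width difference was -100 bp, the chromosome 9 share 70.1% (whole list 57.5%) and the share within 10 kb of H441 Smad3 23.3%. With centres within 200 bp that share was 42.65% and 23.2% had another A549-only site within 10 kb. It was 35.1% when 50% of the peak had to be covered, and 0 by construction when edges within 10 kb counted as overlap, where the chromosome 9 share was 41.0% and that of the whole list 28.5%. Merging peaks within 500 bp gave 16.15% with another site within 10 kb. The chromosome 9 share of 40.4% without its 2 densest windows was chosen after seeing the data, as was the restriction to sites over 10 kb from H441 Smad3. Where not said, the cause was not tested. No paired analysis was possible because each condition has 1 library. Without read counts, a weak H441 peak cannot be told from none.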
